A study of Mus musculus with 6 samples.

Results

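The transcripts examined here are those of the cyclin-dependent kinase (CDK) inhibitors of the mouse, of p53 (Trp53) and of Mdm2, the ubiquitin ligase of p53. They were chosen by symbol, and all 9 were found among the 24411 genes of the table. RNA of a fast-twitch muscle of the lower leg (extensor digitorum longus, EDL) was compared between 3 mAktDKO mice (Mlc1f-Cre:Akt1/2-floxed) and 3 control mice (Akt1/2-floxed, without Cre), all C57BL/6J and 50 weeks old. Both groups carry the floxed Akt1 and Akt2 alleles, and the mAktDKO mice carry in addition a Cre recombinase knocked in behind the promoter of the myosin light chain Mlc1f. The study describes this promoter as active mainly in fast-twitch muscle and little in satellite cells. The methods state that male mice were used unless otherwise indicated. The mAktDKO mice are numbered 1 to 3 and the control mice 2 to 4, as in the table.

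CDK inhibitors hold cells out of division. The CIP/KIP inhibitors, p21 (Cdkn1a), p27 (Cdkn1b) and p57 (Cdkn1c), bind complexes of cyclins with CDKs, whereas the INK4 inhibitors, p16 (Cdkn2a), p15 (Cdkn2b), p18 (Cdkn2c) and p19 (Cdkn2d), bind CDK4 and CDK6. Both leave the retinoblastoma protein active. p53 is a transcription factor that is stabilised by DNA damage and activates Cdkn1a and Mdm2, and Mdm2 in turn marks p53 for degradation. Muscle fibres do not divide, CIP/KIP inhibitors are known to accompany the exit of myoblasts from the cell cycle, and Cdkn2a and Cdkn1a are in common use as markers of senescence. Akt phosphorylates p21, p27 and Mdm2, and it keeps the FoxO factors, known activators of Cdkn1b, out of the nucleus.

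The sequences upstream of 4 of these genes are shown, Cdkn1b and Cdkn1a because they had the smallest p of the 9 genes and Trp53 and Mdm2 because their products regulate each other and Cdkn1a. They are the 250 bases before each annotated start (RefSeq, GRCm38.p6), written 5′ to 3′ on the strand of the gene. Capitals mark the FoxO core GTAAACA, the GC box GGGCGG and the p53 consensus decamer, each searched on both strands. Cdkn1b lies on chr6:134920151-134920400 (+). Cdkn1a has an upstream start on chr17:29090729-29090978 (+) and a downstream start on chr17:29093519-29093768 (+). Trp53 lies on chr11:69580109-69580358 (+) and Mdm2 on chr10:117710759-117711008 (-).
Cdkn1b: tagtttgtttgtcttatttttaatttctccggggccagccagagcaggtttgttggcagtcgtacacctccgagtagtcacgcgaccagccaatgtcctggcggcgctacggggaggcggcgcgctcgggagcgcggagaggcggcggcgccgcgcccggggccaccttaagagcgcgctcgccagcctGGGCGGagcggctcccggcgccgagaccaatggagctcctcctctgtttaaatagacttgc
Cdkn1a upstream start: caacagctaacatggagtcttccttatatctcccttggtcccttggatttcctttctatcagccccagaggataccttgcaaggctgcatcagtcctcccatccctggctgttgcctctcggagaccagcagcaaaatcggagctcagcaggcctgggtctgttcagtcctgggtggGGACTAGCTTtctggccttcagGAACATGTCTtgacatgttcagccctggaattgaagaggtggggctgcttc
Cdkn1a downstream start: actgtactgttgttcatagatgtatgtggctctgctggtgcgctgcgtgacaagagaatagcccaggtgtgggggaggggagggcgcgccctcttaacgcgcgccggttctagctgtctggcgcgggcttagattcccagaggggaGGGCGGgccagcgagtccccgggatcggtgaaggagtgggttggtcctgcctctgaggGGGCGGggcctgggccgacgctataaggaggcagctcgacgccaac
Trp53: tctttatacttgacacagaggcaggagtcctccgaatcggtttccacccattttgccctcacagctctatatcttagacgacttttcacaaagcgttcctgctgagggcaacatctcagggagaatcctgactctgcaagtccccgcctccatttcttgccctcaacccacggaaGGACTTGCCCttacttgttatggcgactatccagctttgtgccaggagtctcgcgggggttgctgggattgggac
Mdm2: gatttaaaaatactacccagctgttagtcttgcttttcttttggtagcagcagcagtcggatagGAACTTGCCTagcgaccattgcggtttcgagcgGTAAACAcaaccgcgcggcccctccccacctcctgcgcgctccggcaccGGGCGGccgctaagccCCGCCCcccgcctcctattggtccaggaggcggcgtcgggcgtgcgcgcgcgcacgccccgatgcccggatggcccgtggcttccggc

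The p53 consensus decamer is a half-site and not a full p53 site. It occurred in 2 places before the upstream start of Cdkn1a and in 0 before its downstream start. Trp53 and Mdm2 had 1 match each, and so had Cdkn2d. Among all 32851 promoters of the RefSeq table, 7.13% held it. Of the windows searched, only that of Mdm2 held the FoxO core, as did 3.17% of all promoters, and the window of Cdkn1b held 0 matches to these letters. GC boxes stood before Cdkn1b in 1 place, before the downstream start of Cdkn1a in 2 and before Mdm2 in 2, and 32.7% of all promoters held at least 1. In Cdkn2d, which is not printed, a GC box and the p53 decamer share bases. A match describes letters and is not a measured binding site. The table holds no entry for Cdkn1c.

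The totals of the 6 mice lay between 13738795 and 15445523 counts, so that 3 counts, the smallest level taken as measurable, correspond to 0.180 to 0.227 CPM (counts scaled to a library of one standard size, with TMM factors). These limits cover counting error only. The targeted genes had log2 fold changes (mAktDKO minus control) of -1.55 for Akt2 (edgeR adjusted p = 0.000923), with 49.1 to 52.7 CPM against 133 to 172 CPM, and of -0.25 for Akt1 (edgeR adjusted p = 0.115), with 51.4 to 58.9 CPM against 65.5 to 66.5 CPM. The fast fibre gene Myh4 was at 47000 to 55600 CPM across the 6 mice, the most abundant of the fibre genes checked. Control mouse 2 stood apart, with a root mean square log2 difference of 0.495 and 0.496 from the other controls, against 0.327 to 0.419 in the remaining pairs within a group. In whole muscle, fewer cells of a type and less RNA per cell cannot be told apart.

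Of the 9 genes, 7 passed the filter on low counts and were tested among 12892 genes. None of the 7 was called at an adjusted p under 0.01 or under 0.05 (Benjamini-Hochberg adjustment of the quasi-likelihood test of edgeR). The threshold of 0.01 is that of the study, which applied it with DESeq2 and not with edgeR. Across all genes, 0.0233% were called at the first threshold, and 0.264% were called higher and 0.915% lower at the second. At an unadjusted p under 0.05, 3 of the 7 were higher (Cdkn1b, Cdkn1c and Trp53) and 1 was lower (Cdkn1a), where 11.4% of all genes were higher and 13.1% lower. Counted in both directions, 2 of the 7 passed without mAktDKO mouse 1 and 5 without mAktDKO mouse 3. The groups did not overlap for 5 of the 7. Cdkn1b, Cdkn1c, Cdkn2c and Trp53 had all 3 mAktDKO values above all 3 control values, as did 14.6% of all genes, and Cdkn1a had all of them below, as did 16.6%. The median log2 fold change of the 7 was 0.31, against 0.017 over all genes. Without mAktDKO mouse 2 the median of the 7 was 0.12, the value of Cdkn2c. DESeq2's Wald test also called 0 of the genes at 0.01 and gave 2 under 0.05, Cdkn1a and Cdkn1b. This test called far more genes than edgeR, 3.46% at 0.01 and 8.03% at 0.05 of the 9781 genes to which it gave an adjusted p.

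**Figure D1:**
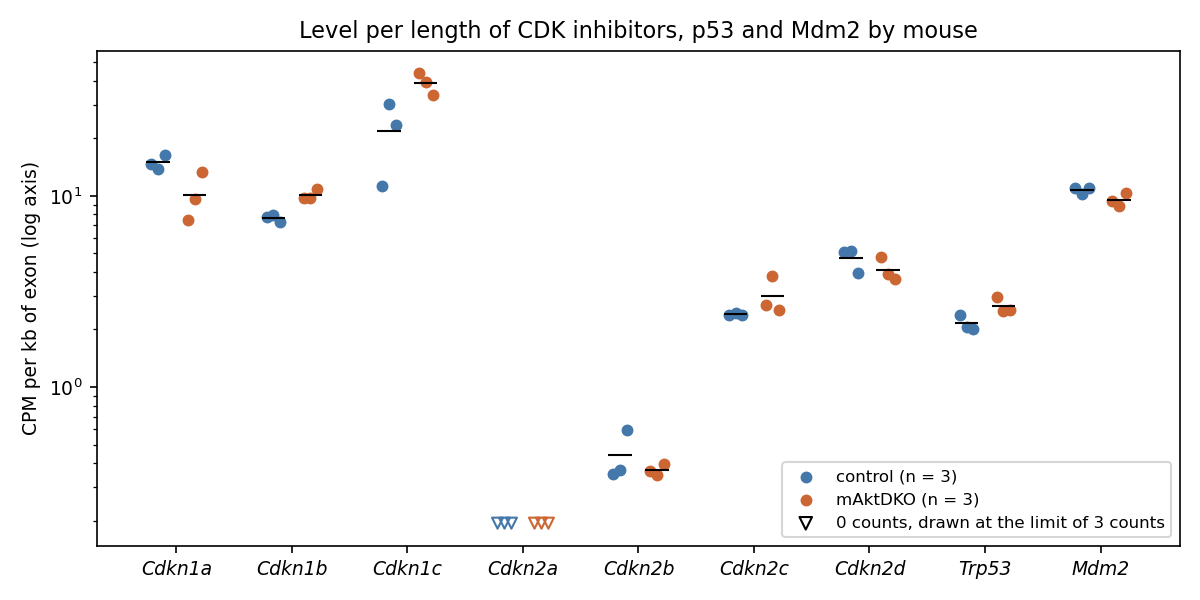
Level per length of the 9 genes by mouse, in CPM per kb of exon on a log axis (points, mice; bars, means of 3; open triangles, 0 counts, drawn at the limit that 3 counts set). Cdkn1c had the highest mean in both groups, Cdkn2a had 0 counts in every mouse, and the groups lay apart for Cdkn1a, Cdkn1b, Cdkn1c, Cdkn2c and Trp53.

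Among the CIP/KIP inhibitors, Cdkn1b, which encodes p27, had the smallest p of the 9 genes (edgeR unadjusted p = 0.00109, place 251 among the 12892 genes). The gene lies on chromosome 6 of mm10 from 134920401 to 134925513. It was at 44.1, 44.6 and 49.3 CPM in mAktDKO mice 1 to 3 and at 35.4, 36.1 and 33.1 CPM in control mice 2 to 4. Every mAktDKO mouse was above every control mouse, and the spread within each group was narrow. The means were 46.0 ± 2.85 and 34.9 ± 1.57 CPM (SD, n = 3 each), and the log2 fold change was 0.40 (standard error 0.0845, 95% confidence interval 0.21 to 0.59, edgeR adjusted p = 0.0557). It was between 0.33 and 0.43 when any 1 mouse was left out. With DESeq2 the adjusted p was 0.0236, at a log2 fold change of 0.39.

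Cdkn1a, which encodes p21 and is a standard target of p53, had the opposite direction. It spans chromosome 17 from 29090976 to 29100727. The mAktDKO mice had 26.6, 34.1 and 47.1 CPM, and the controls had 52.4, 49.2 and 57.8 CPM. The groups lay apart by little, since mAktDKO mouse 3 was close to control mouse 3, whereas mAktDKO mice 1 and 2 were well below every control. The means were 36.0 ± 10.4 and 53.1 ± 4.35 CPM (SD, n = 3 each). This is a log2 fold change of -0.56 (standard error 0.18, 95% confidence interval -0.97 to -0.16, edgeR adjusted p = 0.112), and DESeq2 gave -0.57 (adjusted p = 0.0255). Leaving out mAktDKO mouse 1 gave -0.39, and leaving out mAktDKO mouse 3 gave -0.82. A predicted transcript, AC167363.2, shares 1046 bases with the gene on the opposite strand, and whether the counting used strand is not given in the sources used here.

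Cdkn1c, which encodes p57 and is an imprinted gene expressed from the maternal copy, had the largest difference with all mice included, and the widest spread. It lies on chromosome 7 from 143458339 to 143461050. Its levels were 89.2, 80.6 and 68.7 CPM in mAktDKO mice, compared with 23.1, 62.0 and 47.9 CPM in control mice. Every mAktDKO mouse was above every control, but control mouse 2 was far below the other controls. The means were 79.5 ± 10.3 and 44.3 ± 19.7 CPM (SD, n = 3 each), a log2 fold change of 0.84 (standard error 0.286, 95% confidence interval 0.20 to 1.49, edgeR adjusted p = 0.128). Without control mouse 2 it was 0.53 (edgeR adjusted p = 0.0859), smaller in size than the -0.58 of Cdkn1a in that fit. Without control mouse 3 the value of Cdkn1c was 1.16. The antisense gene Gm44732 shares 892 bases with Cdkn1c on the opposite strand.

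Markers of other cells were also uneven between the mice. The summed level of 4 markers of dividing cells (Mki67, Top2a, Cdk1 and Ccnb1) was 17.0 to 48.4 CPM in the mAktDKO mice and 3.50 to 33.6 CPM in the controls, with the lowest value in control mouse 2. That of 4 markers of fibro-adipogenic progenitors (Pdgfra, Dcn, Col1a1 and Ly6a) was 15200 to 19700 and 6360 to 15500 CPM, again lowest in control mouse 2, and Col1a1 made up most of it. Pdgfra (79.3 to 87.9 and 62.8 to 75.7 CPM) and Dcn (587 to 699 and 372 to 477 CPM) were higher in each mAktDKO mouse, whereas Col1a1 and Ly6a overlapped. For 4 endothelial markers the ranges were 391 to 458 and 325 to 421 CPM, for 4 mural markers 491 to 551 and 398 to 494 CPM, and for 4 Schwann cell markers 376 to 486 and 307 to 390 CPM. Macrophage markers, also 4, were at 44.3 to 54.6 and 30.6 to 43.9 CPM. The 4 adipocyte markers were at 19.7 to 66.5 and 13.8 to 33.1 CPM. The 5 satellite cell markers were at 38.1 to 44.2 and 41.4 to 47.6 CPM, a sum made up mostly of Chodl and Cdh15. Single markers went both ways. Cdh15 was lower in each mAktDKO mouse, at 14.4 to 15.9 and 17.2 to 24.3 CPM. Myf5 was higher in each, at 2.6 to 2.82 and 1.33 to 2.19 CPM. Pax7, at 2.98 to 4.19 and 2.92 to 3.85 CPM, overlapped, as did Chodl and Calcr. The 9 muscle fibre markers, a sum led by Myh4, were at 103000 to 113000 and 115000 to 125000 CPM. Myh4 itself overlapped, at 47000 to 53000 and 47000 to 55600 CPM. Myh1 was lower in each mAktDKO mouse, at 11500 to 12300 and 16000 to 17800 CPM, and so were Acta1 and Ckm. The slow-fibre genes among them overlapped, at 269 to 637 and 168 to 368 CPM (Myh7) and at 16.7 to 33.5 and 10.3 to 21.2 CPM (Tnni1). None of these markers was at 0 in all mice, and their part in the differences of the inhibitors was not tested.

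**Figure D2:**
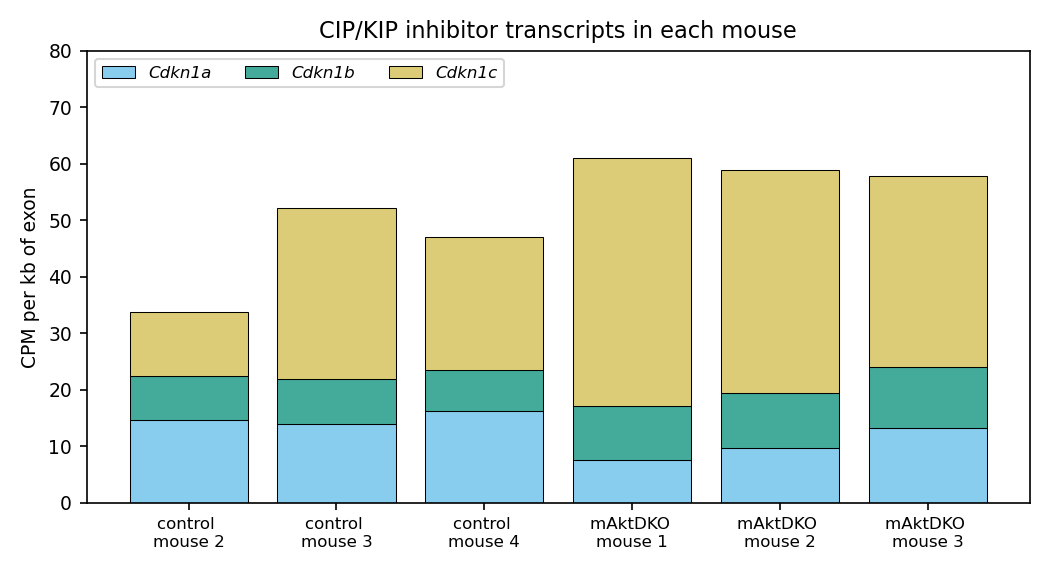
Level per length of Cdkn1a, Cdkn1b and Cdkn1c, stacked for each mouse, in CPM per kb of exon. The sum was 57.8 to 60.9 in the mAktDKO mice and 33.8 to 52.2 in the controls, and Cdkn1c made up 58.3% to 71.8% and 33.4% to 58.3% of it.

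The levels of different genes were compared only after division by the length of their annotated exons. On this scale the CIP/KIP inhibitors together were at 60.9, 58.9 and 57.8 CPM per kb in the mAktDKO mice and at 33.8, 52.2 and 47.1 in the controls, and all mAktDKO mice were higher. The share of Cdkn1a in this sum was 12.3%, 16.3% and 22.9% in the mAktDKO mice and 43.6%, 26.5% and 34.6% in the controls, with no overlap. That was fixed by the single genes, since Cdkn1a was lower and Cdkn1b and Cdkn1c higher in each mAktDKO mouse. The share of Cdkn1b overlapped between the groups, at 17.1% ± 1.47 and 17.9% ± 4.44 (SD, n = 3 each). Cdkn1c took 65.7% ± 6.84 of the sum in the mAktDKO mice and 47.2% ± 12.6 in the controls (SD, n = 3 each), where the lowest mAktDKO mouse and the highest control were both at 58.3%. An exact permutation test of 3 mice against 3 cannot give a p below 0.1, and the sums and shares are given as values. In both groups Cdkn1c had the highest mean, at 39.0 CPM per kb in the mAktDKO mice and 21.7 in the controls, and its range overlapped that of Cdkn1a in the controls (13.9 to 16.3) but not in the mAktDKO mice. In the controls Cdkn1a was apart from Mdm2 and Mdm2 from Cdkn1b, whereas in the mAktDKO mice the ranges of Cdkn1a (7.50 to 13.3), Cdkn1b (9.69 to 10.8) and Mdm2 (8.89 to 10.4 CPM per kb) overlapped.

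The INK4 inhibitors were at lower levels. Cdkn2a, which encodes p16 and, from another first exon, p19ARF, had 0 counts in each of the 6 mice. The gene lies on chromosome 4 from 89274471 to 89294653, and its count covers both products. A count of 0 allows a level of up to 0.153 to 0.194 CPM per kb, depending on the mouse (3 counts, on the same TMM scale), and lower levels were not detectable at this depth. Within every mouse Cdkn1a was at least 46.2-fold and Trp53 at least 10.3-fold higher than Cdkn2a taken at the limit of that mouse. These libraries therefore do not show whether Cdkn2a differed between the genotypes.

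Cdkn2b, the neighbour of Cdkn2a on chromosome 4 (89306299 to 89311039), encodes p15 and was listed with 8, 8 and 8 counts in the mAktDKO mice and 7, 7 and 11 counts in the controls. It was above the limit of 3 counts in every mouse but under the filter, and the groups overlapped. In the fit without a filter, which covered 17360 genes, it had a log2 difference of -0.25 (edgeR, standard error 0.465 and adjusted p = 0.793).

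Cdkn2c, which encodes p18, lies on chromosome 4 from 109660876 to 109667189. Its values were 7.23, 10.2 and 6.79 CPM in mAktDKO mice, compared with 6.36, 6.57 and 6.43 CPM in control mice. The groups did not overlap, but only mAktDKO mouse 2 was well above the rest. The log2 fold change was 0.33 (standard error 0.175, 95% confidence interval -0.07 to 0.72, edgeR adjusted p = 0.272), and it was 0.12 without mAktDKO mouse 2. At a mean of 108 counts per mouse, counting alone gives an error of 9.61%, which is wider than the spread of the 3 controls.

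Cdkn2d, which encodes p19INK4d, lies on chromosome 9 from 21288410 to 21291407 and overlapped between the groups. It was at 7.55, 6.11 and 5.76 CPM in mAktDKO mice, compared with 8.04, 8.10 and 6.20 CPM in control mice, with mAktDKO mouse 1 among the control values. The log2 fold change was -0.20 (standard error 0.166, 95% confidence interval -0.58 to 0.17, edgeR adjusted p = 0.469). It was -0.33 without mAktDKO mouse 1, -0.32 without control mouse 4 and -0.06 with library totals. Summed per length, the INK4 genes were at 7.49 ± 0.793 CPM per kb in the mAktDKO mice and 7.57 ± 0.56 in the controls (SD, n = 3 each), and the difference was smaller than the spread between mice. Cdkn2d made up 48.3% to 61.1% of this sum in the mAktDKO mice and 56.8% to 65.2% in the controls, and Cdkn2c made up 34.3% to 47.4% and 30.3% to 34.5%.

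**Figure D3:**
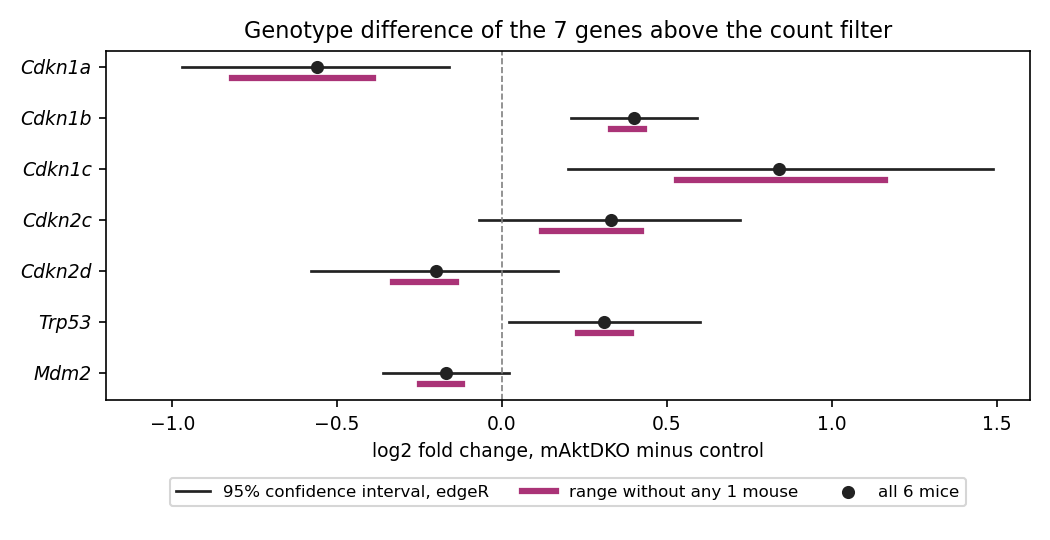
Log2 fold change of the 7 genes above the count filter, mAktDKO minus control (points, all 6 mice; black lines, 95% confidence intervals from edgeR; coloured bars, lowest to highest value when 1 mouse was left out). The intervals of Cdkn1a, Cdkn1b, Cdkn1c and Trp53 did not include 0 before adjustment, and the sign of all 7 stayed the same without any 1 mouse.

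Trp53 itself, on chromosome 11 from 69580359 to 69591873, was at 12.0, 10.1 and 10.3 CPM in mAktDKO mice, compared with 9.65, 8.39 and 8.09 CPM in control mice. The mAktDKO mice were all higher, although control mouse 2 was close to the lowest of them. The means were 10.8 ± 1.03 and 8.71 ± 0.827 CPM (SD, n = 3 each), a log2 fold change of 0.31 (standard error 0.128, 95% confidence interval 0.02 to 0.60, edgeR adjusted p = 0.179). Its level per length was the lowest of the tested genes in both groups, with a range that overlapped that of Cdkn2c.

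Mdm2, on chromosome 10 from 117688875 to 117710758, was measured at 47.6, 45.2 and 52.7 CPM in mAktDKO mice, compared with 55.7, 52.1 and 55.7 CPM in control mice. mAktDKO mouse 3 was above control mouse 3, so the groups overlapped. The log2 fold change was -0.17 (standard error 0.0858, 95% confidence interval -0.36 to 0.02, edgeR adjusted p = 0.251), and with library totals it was -0.03. It rested on 714 to 797 counts in the 6 libraries.

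The pattern of Cdkn1b over the 6 mice was compared with that of the other 12891 tested genes by the Pearson correlation of log2 CPM, as a description. The closest were Mbnl1, a splicing regulator (r = 0.9933), Stx6, a syntaxin (r = 0.9905), Ache, the acetylcholinesterase (r = 0.9888), Senp6, a SUMO protease (r = 0.9878), and Arhgap6, a GTPase-activating protein (r = 0.9863). The points are 6 mice of 2 groups and share their libraries, and 262 genes had an r above 0.9. Mbnl1 was at 590, 623 and 662 CPM in mAktDKO mice, compared with 511, 517 and 482 CPM in control mice. Arhgap6 had the largest difference of the 5, with a log2 fold change of 0.75 (edgeR adjusted p = 0.0474).

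A list around the genes on which the inhibitors act was described next. It holds kinases, cyclins, pocket proteins and E2F factors of the G1 phase, and in addition Pcna, Skp2 and Cks1b. Of 21 genes 20 were tested, since Ccne1 was under the filter. None was called at 0.01 or at 0.05, and at an unadjusted p under 0.05 there were 5 higher and 1 lower, where all genes had 11.4% and 13.1%. In all, 16 were higher and 4 lower, against 52.5% higher among all genes. The median of their log2 fold changes was 0.20, against 0.017 over all genes, but it was 0.071 without control mouse 2. With library totals it was 0.34, against 0.16 over all genes. E2f6, an E2F factor that represses, was at 99.7 ± 4.42 CPM in the mAktDKO mice and 121 ± 14.3 CPM in the controls (SD, n = 3 each), a log2 fold change of -0.28 (edgeR adjusted p = 0.132). Rb1, the retinoblastoma gene, was at 36.5 ± 1.06 and 29.8 ± 4.10 CPM (SD, n = 3 each), a log2 fold change of 0.29 (adjusted p = 0.147). Ccnd3, the cyclin D3 gene, had 0.32 (adjusted p = 0.151), and Rbl1, which encodes the pocket protein p107, had 0.63 (adjusted p = 0.152, edgeR). Without control mouse 2 these became -0.18 for E2f6, 0.20 for Rb1, 0.22 for Ccnd3 and 0.43 for Rbl1.

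Regulators and relatives of p53 divided evenly. Of 20 genes, Chek1 and Trp73 were under the filter, and the other 18 were higher in 10 cases and lower in 8, a share of 55.6% higher against 52.5% of all genes. Their log2 fold changes had a median of 0.054, which was 0.009 without mAktDKO mouse 2, 0.013 without mAktDKO mouse 3 and 0.19 with library totals, a scaling that put the median of all genes at 0.16. None passed either threshold in edgeR, and at an unadjusted p under 0.05 there were 3 higher and 1 lower, against 11.4% and 13.1% of all genes. Trp53bp1, a DNA repair protein that binds p53, was at 23.4, 23.5 and 21.2 CPM in mAktDKO mice, compared with 30.8, 28.2 and 26.7 CPM in control mice, and was lower in each mAktDKO mouse. This gave a log2 fold change of -0.33 (edgeR, standard error 0.094 and adjusted p = 0.0908). Atm, the kinase that signals DNA breaks to p53, had 0.23 (edgeR adjusted p = 0.174). Sirt1, a deacetylase of p53, had 0.22 (adjusted p = 0.188), and Setd7, a lysine methyltransferase, had 0.22 (adjusted p = 0.189, both from edgeR).

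Target genes of p53 other than Cdkn1a and Mdm2 numbered 34, of which 29 were tested. They were higher in 15 cases and lower in 14, and the median of their log2 fold changes was 0.003, a value whose sign changed with 1 mouse left out (-0.055 without control mouse 2) and which was 0.14 with library totals, and the number at an unadjusted p under 0.05 was 3 in each direction, against 11.4% higher and 13.1% lower of all genes. edgeR called 0 of them at either threshold. The genes with the smallest p had opposite signs. Plk2, a polo-like kinase, was at 17.9, 13.2 and 13.0 CPM in mAktDKO mice, compared with 10.3, 8.02 and 8.24 CPM in control mice (log2 fold change 0.73, edgeR adjusted p = 0.0598). Eda2r, a receptor of the TNF family, was at 25.9, 34.1 and 40.6 CPM and at 23.2, 11.4 and 20.6 CPM (log2 fold change 0.86, edgeR adjusted p = 0.0922). Both genes were higher in each mAktDKO mouse. DESeq2 called Eda2r at 0.01 (adjusted p = 0.00663) and gave Plk2 an adjusted p of 0.0115. Of the 9781 genes to which DESeq2 gave an adjusted p, it called 3.46% at 0.01 and 8.03% at 0.05. Phlda3, which encodes an inhibitor of Akt binding to membranes, was at 70.4, 58.5 and 69.6 CPM and at 120, 78.8 and 89.3 CPM, lower in each mAktDKO mouse (log2 fold change -0.54, edgeR adjusted p = 0.0891). With DESeq2 Phlda3 had -0.55 (adjusted p = 0.0123), and in edgeR it had -0.35 without control mouse 2. Aen, an exonuclease of apoptosis, had -0.31 (edgeR adjusted p = 0.147), and -0.19 without control mouse 2. In that same refit the higher genes had larger differences, 0.85 for Plk2 and 1.07 for Eda2r.

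**Figure D4:**
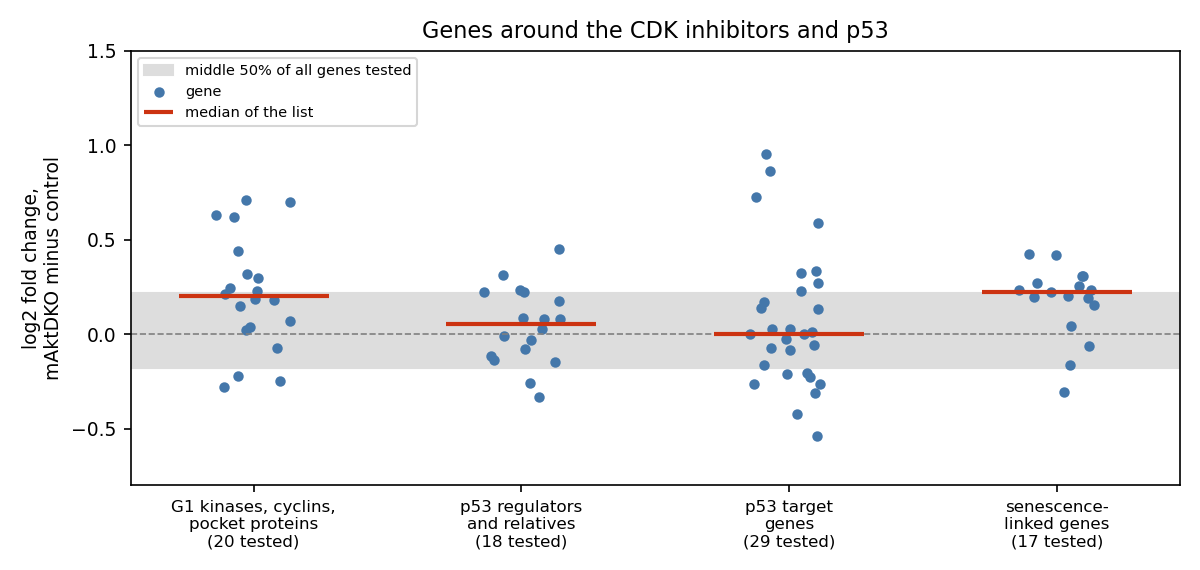
Log2 fold change, mAktDKO minus control, of the tested genes of 4 lists around the CDK inhibitors and p53 (points, genes; red bars, medians; grey band, the middle 50% of all 12892 genes, -0.18 to 0.22). The medians were 0.20, 0.054, 0.003 and 0.22, and edgeR called no gene of the lists.

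Of 24 genes linked to senescence, 7 were too low to test. Ccl2, Cxcl1, Il1a, Il1b, Il6, Mmp12 and Tnf, cytokines and a protease of the secretory phenotype, were under the filter. The other 17 were higher in 14 cases (82.4%, against 52.5% of all genes) and lower in 3, with 0 calls at either threshold. The list mixes genes that rise in senescence with genes known for their loss in it, and the 14 include Lmnb1, Hmgb1 (0.16), Hmgb2 (0.42), Ezh2 (0.23) and Bmi1 (0.046 on the log2 scale) of the second kind, so the count has no single direction with regard to senescence. The median of their log2 fold changes was 0.22, against 0.017 over all genes, and 0.36 against 0.16 with library totals. At an unadjusted p under 0.05 there were 2 higher and 1 lower, against 11.4% and 13.1% of all genes, and DESeq2 called 0 genes at 0.01 in this list, in the G1 list and among the p53 regulators. H2afy, the gene of the histone variant macroH2A, was at 37.6 ± 3.93 CPM in the mAktDKO mice and 46.6 ± 1.74 CPM in the controls (SD, n = 3 each), a log2 fold change of -0.31 (edgeR adjusted p = 0.107). Ets1, a transcription factor, had 0.31 (adjusted p = 0.116). Lmnb1, the lamin B1 gene, whose loss is a marker of senescence, had 0.31 (adjusted p = 0.201), and its groups overlapped. Tnfrsf1a, a receptor of tumour necrosis factor, had 0.20 (adjusted p = 0.227, all from edgeR).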

How the data were processed

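The authors prepared rRNA-depleted, directional libraries from EDL, sequenced them with paired-end reads, mapped these to mm10 with STAR (2.6.1b per the submitters' processing notes; the methods name another release) and counted genes with RSEM 1.3.1. The deposited values are expected counts per gene symbol, not scaled between mice. They were rounded to whole numbers. In R 4.3.3 with edgeR 4.0.16, low genes were removed (filterByExpr, minimum count 10), TMM factors were computed and the genotypes were compared by the quasi-likelihood F test, with Benjamini-Hochberg adjustment over 12892 genes and a call at an adjusted p under 0.01. The standard error is the log2 fold change divided by the square root of F. CPM values use TMM-scaled totals, and log2 CPM a prior count of 2. Coordinates and exon lengths (the union of all exons of a gene) came from GENCODE M21 (GRCm38, the mm10 build), which need not be the annotation that RSEM used. All 9 symbols matched GENCODE, and 8 had a RefSeq promoter.

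Alternatives were other scalings, DESeq2 1.42.0, other filters, a threshold of 0.05 and leaving out each mouse. The steps were tested on simulated data. The genes and lists were chosen with earlier results of these data known. Named by rule are the 9 genes, Akt1, Akt2, the 4 genes of each list with the smallest p, and the 5 genes closest to whichever of the 9 has the smallest p. Other genes are named to describe what a list or sum holds, outside this rule. They are cell type markers, genes under the filter, Pcna, Skp2, Cks1b, Hmgb1, Hmgb2, Ezh2 and Bmi1. Transcripts that overlap 1 of the 9 genes are named as well. The control columns are numbered 2 to 4 but the labelled control samples 1 to 3, and each such column was used as a control without being tied to a labelled sample. The p-values measure only the spread between these samples. No column was a copy of another (chi-square per degree of freedom at least 7.57).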

Additional observations from a re-analysis of the deposited data

How the results depend on the processing

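No paired analysis was possible because the numbers of the control columns (2 to 4) differ from those of the labelled control samples (1 to 3), and no label ties a number to a litter or day. The number of CDK inhibitors, p53 and Mdm2 called at an adjusted p under 0.01 was 0 under each of the alternatives, also without any 1 mouse. At an adjusted p under 0.05 the number was 0 as reported, 2 with DESeq2 (Cdkn1a and Cdkn1b) and 1 (Cdkn1b) with library totals (adjusted p = 0.041), with no filter (0.0495) and with at least 10 counts in every mouse (0.0479). The sign of each of the 7 tested genes was the same in all 12 refits. Across these, the adjusted p of Cdkn1b was between 0.0236 and 0.234, and that of Cdkn1a between 0.0255 and 0.332. Library totals moved the median of all genes from 0.017 to 0.16. Minus this median, Cdkn1b was at 0.38 under both scalings, Cdkn1a at -0.59 with library totals and -0.58 with TMM, and Mdm2 at -0.19 under both. The median of the p53 targets was between -0.055 and 0.022 without 1 mouse, with both signs, and 0.14 with library totals. The causes were not tested. At the depth of these libraries Cdkn2a (0 counts) and Cdkn2b (7 to 11 counts) did not pass the filter.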

Other observations

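Ratios between these genes were computed within each mouse after their values had been seen, on the scale per exon length, and with 3 mice against 3 no exact permutation test of them can pass 0.05. The ratio of Mdm2 to Trp53 was 3.16, 3.55 and 4.07 in mAktDKO mice 1 to 3 and 4.60, 4.94 and 5.48 in control mice 2 to 4. It was lower in each mAktDKO mouse. Mdm2 alone overlapped between the groups, but Trp53 alone was higher in each mAktDKO mouse. The ranges of both genes already fixed the lack of overlap of this ratio, so it is not a separate result. The ratio of Cdkn1b to Cdkn1a was 1.29, 1.02 and 0.817 in the mAktDKO mice and 0.528, 0.572 and 0.447 in the controls, with no overlap. Cdkn1c to Cdkn1a was 5.84, 4.11 and 2.54 against 0.768, 2.19 and 1.44, also with no overlap, and control mouse 2 was the lowest. In these ratios to Cdkn1a the lack of overlap was fixed by the single genes, since Cdkn1b and Cdkn1c were higher and Cdkn1a lower in each mAktDKO mouse. Cdkn2d to Cdkn2c was 1.78, 1.02 and 1.45 against 2.16, 2.10 and 1.65, and these groups overlapped. These 4 ratios were the only ones computed.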
